A study of Mus musculus with 2 samples.

Results

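The sites described here are the CTCF peaks at 4 nested pairs of imprinted mouse genes, in each of which a small inner gene lies in an intron of a larger host. The pairs are Mcts2 in H13, Nnat in Blcap, Nap1l5 in Herc3 and Zrsr1 in Commd1, which gives 8 genes. All summits of the optimal list that lay in a pair or within 20 kb of it were taken. They numbered 19 of the 54943 summits on the assembled chromosomes: 7 at H13 and Mcts2, 3 at Blcap and Nnat, 3 at Herc3 and Nap1l5, and 6 at Commd1 and Zrsr1.

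CTCF, the zinc finger protein of insulators and chromatin loop anchors, was assayed in lungs of B6NCrl mouse embryos at day 14.5 by ChIP-seq, in which DNA bound by a protein is precipitated with an antibody and sequenced. Pulverised lungs of both sexes from several dissections formed the pool. The study has 1 group with 2 samples, biological replicates 1 and 2, and no second condition, so the spread between the replicates is the only error that can be given. Both replicates carry the same biosample and donor record, and that spread may be technical. The values are peak lists on mm10. They hold no read counts, so the depth of either sample is unknown, and they carry no information on which parental allele was bound. They hold no expression values either, so the labelled tissue was not checked against marker genes, and the cell types of the whole lung are mixed.

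Genomic imprinting is the expression of a gene from only the maternal or only the paternal chromosome. A retrogene is a copy of a messenger RNA that was written back into the genome and so usually lacks introns. Mcts2, Nap1l5 and Zrsr1 are retrogenes of this kind, and with Nnat they are known to be expressed from the paternal copy, with a promoter CpG island that is methylated on the maternal copy. At H13 and Herc3 the choice between short and long host transcripts is known to differ between the alleles. CTCF binds an asymmetric motif, and at some imprinted loci its binding is known to be blocked by CpG methylation. These are background facts and were not measured here.

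The annotation (GENCODE M21) placed the inner genes as follows. Mcts2 had 1 exon and lay in intron 4 of 11 of the longest coding H13 transcript, on the same strand as its host. Zrsr1 had 1 exon in its longest transcript and lay in intron 1 of 2 of Commd1, on the opposite strand. Nap1l5 had 2 exons in its longest transcript and lay in intron 22 of 24 of Herc3, also on the opposite strand. Nnat lay in intron 2 of 2 of Blcap on the opposite strand, and with 4 exons in its longest transcript its annotated structure is not that of an intronless retrogene. All 4 are therefore called inner or nested genes below.

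The motif matches that carry the account of the loci are printed first, each read 5′ to 3′ on its own strand. Capitals mark the 7 bases at the place of the consensus core AGGGGGC. The H13 matches printed are a selection, all on the plus strand. The H13 window held 6 matches, 5 on the plus strand and 1 on the minus strand. The minus-strand match, at the outermost site, scored 22.02 bits and is not printed. Matches of the other pairs are shown because they lie at the strongest site or at the motif-bearing site nearest to the inner gene. The match upstream of Nnat scored 10.5 bits, just over the threshold of 10.4.
Learned consensus: tggccaccAGGGGGCgctag
H13 start, chr2:152669387-152669406, plus strand: ccgccaccAGAGGGCgatcg
H13 intron 8, nearest to Mcts2, chr2:152692097-152692116, plus strand: cagccagaAGAGGGAgccct
H13 intron 8, chr2:152693421-152693440, plus strand: cggtcaccAGGGGGCgctaa
H13 intron 10, chr2:152696943-152696962, plus strand: cggccaccAGGTGGCgggct
Upstream of Nnat, chr2:157558734-157558753, minus strand: ttaccacaCGGTGGCacaac
Blcap start, chr2:157571706-157571725, minus strand: ataccgctAGGTGTCaccac
Beyond the end of Herc3, chr6:58921789-58921808, plus strand: tgtccagtAGAGGTCaccct
Commd1 intron 1, nearest to Zrsr1, chr11:22965807-22965826, plus strand: atgccactAGAGGGCatcgg
Upstream of Commd1, chr11:22987492-22987511, plus strand: ctgccaccAGGGGTTgctat

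A summit lay within 1 kb of the annotated gene start in 3 of the 4 hosts (H13, Blcap and Commd1) and in 1 of the 4 inner genes (Nnat). For comparison, 26.6% of 21884 protein-coding genes had such a summit. The share was 24.4% of the 627 protein-coding genes that lie inside another protein-coding gene without touching an exon of its longest coding transcript, and 33.9% of the 387 genes that hold such a gene. With a window of 5 kb the counts were 4 hosts and 2 inner genes. With 4 genes of each kind, the counts are descriptions, no test was run, and a difference between hosts and inner genes is not shown. Of 10 starts of non-coding host transcripts that lay over 1 kb from the gene start, 3 had a summit within 1 kb. The share was 11.8% of 23690 such starts in all protein-coding genes. This set of starts was chosen after its values were seen and comes from 4 genes, so no enrichment is shown. For 1 of the 3, in Blcap, the summit is the same as that counted for Nnat.

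**Figure D1:**
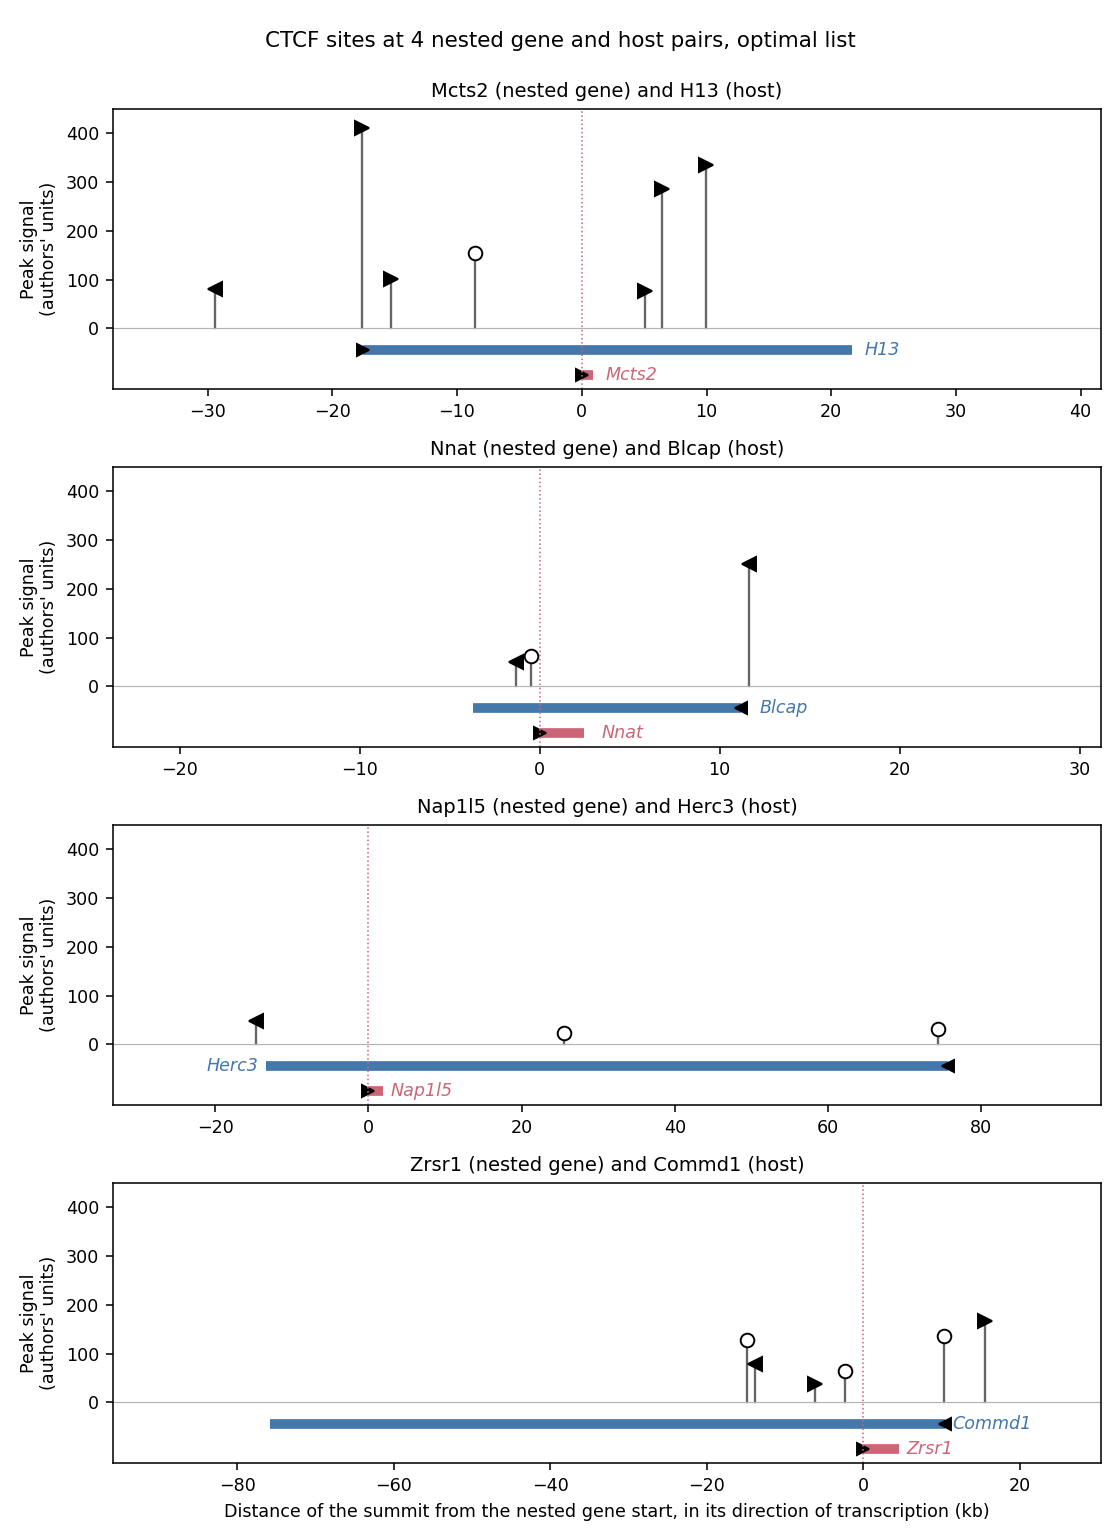
Peak signal of every optimal CTCF site (vertical lines) against its distance in kb from the start of the inner gene (dotted line), read in the direction of that gene, for the 4 pairs. Bars are the genes with an arrowhead at the start. Filled triangles point in the direction of the motif, and open circles are sites without a motif match. The highest line, at 409.9, stands at the start of H13, and no site of the Herc3 pair passes 47.3.

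H13 encodes signal peptide peptidase, a protease of the endoplasmic reticulum that cleaves leftover signal peptides. Its start carried the strongest of the 19 sites, with the summit 44 bp upstream at chromosome 2, 152669272 to 152669540. The signal was 409.9 in the optimal list, 214.5 in replicate 1 and 196.5 in replicate 2. The site ranked 348 of 54953 optimal peaks, 565 of 300000 in replicate 1 and 220 of 300000 in replicate 2, so both samples placed it near the top. Its motif lies on the plus strand, in the direction of H13.

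Blcap encodes a small membrane protein named for its link to bladder cancer. Its start carried the strongest site of that pair, 437 bp upstream at chromosome 2, 157571594 to 157571836. The signal was 251.2 in the optimal list, 143.8 in replicate 1 and 105.3 in replicate 2, a rank of 5791 in the optimal list. This gene start, and the summit beside it, belong to the longest coding transcript. The starts of the 2 shorter coding transcripts lay 5350 bp and 5374 bp downstream of the same summit and had no nearer site.

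Commd1 encodes a protein of copper handling and of NF-kappa-B regulation. A summit lay in exon 1 of its longest transcript, 33 bp downstream of the start, at chromosome 11, 22982226 to 22982444. The signal was 137.0 in the optimal list. Replicate 1 gave 95.5 and replicate 2 gave 45.3, a ratio of 2.11. Over the 53741 optimal sites that a peak held in both replicate lists, this ratio had a median of 1.23 and ran from 0.719 to 2.23 between the 5th and 95th percentiles. No motif match was found within 50 bp of this summit. The same summit lay 259 bp upstream of Gm28048, a protein-coding gene model that overlaps Commd1 on the same strand.

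Herc3 encodes a ubiquitin ligase of the HERC family and was the host without a summit within 1 kb of its gene start. The nearest summit lay 1249 bp downstream, in an intron of 5 Herc3 transcripts, at chromosome 6, 58832569 to 58832858. Its signal was 30.7, with 21.9 in replicate 1 and 8.09 in replicate 2. The ratio of 2.71 was the highest of the 19 sites and lay above the 95th percentile of all sites. This was also the only 1 of the 19 that was not in the conservative list. Without replicate 1, among the strongest 54953 peaks of replicate 2, the nearest summit to the Herc3 start was 50099 bp away. The site itself ranked 58263 of 300000 in replicate 2, so that cut left it out. Counted from all annotated transcript starts, the closest start was that of Herc3-201, 853 bp upstream of the summit, and with that rule all 4 hosts had a site. The start of Herc3-202, the longest coding transcript and the only one that runs through Nap1l5, lay 986 bp downstream of the summit.

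**Figure D2:**
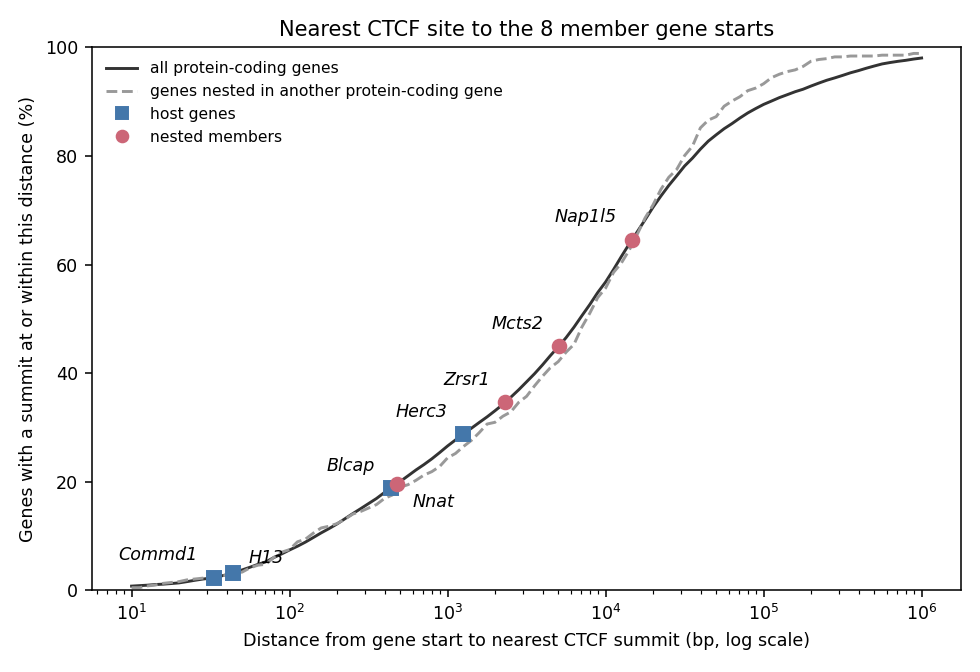
Cumulative share of genes (y axis, %) with a CTCF summit within the distance on the x axis (bp, log scale), for all protein-coding genes (solid) and those nested in another (dashed). The squares of H13 and Commd1 stand at 44 and 33 bp, and the circle of Nap1l5, the farthest member, at 14715 bp.

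Mcts2, the retrogene copy of the X-linked Mcts1, a gene linked to translation re-initiation, had no optimal summit within 5 kb. Its nearest site lay 5061 bp downstream with a signal of 76.6, against 38.9 in replicate 1 and 34.9 in replicate 2. A nearer site was found for 45.0% of protein-coding genes, so this distance is close to the middle of all genes, whose median was 6715 bp. The gap between the sites on either side of the Mcts2 start was 13581 bp, from 8520 bp upstream to 5061 bp downstream. The short coding transcript H13-203 ended in this gap, 334 bp before Mcts2, and 3 of the 4 coding H13 transcripts ran through it.

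Nap1l5 encodes a protein like the nucleosome assembly proteins, and its start was the farthest of the 8 from any site. The nearest summit lay 14715 bp upstream of it, just past the end of Herc3, and 64.6% of protein-coding genes had a nearer site. The signal there was 47.3, with 23.95 in replicate 1 and 22.7 in replicate 2. On the other side the nearest site was 25533 bp away, which leaves a gap of 40248 bp around Nap1l5. Of the 7 coding Herc3 transcripts 6 ended before reaching Nap1l5 and 1 ran through it. Of those 6, Herc3-201 came nearest, ending 1152 bp before it.

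Zrsr1 encodes a splicing factor related to U2AF and is the retrogene copy of the X-linked Zrsr2. Its nearest summit lay 2322 bp upstream, in intron 1 of Commd1, at chromosome 11, 22969538 to 22969827. The signal was 64.8, with 36.7 in replicate 1 and 31.8 in replicate 2, and 34.7% of protein-coding genes had a nearer site. No motif match was found within 50 bp of that summit. With a window of 25 bp, which has a lower threshold, the site had a match. All 4 coding Commd1 transcripts ran through Zrsr1, and none ended before it.

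Nnat encodes neuronatin, a small proteolipid of the endoplasmic reticulum that is abundant in the developing brain, and was the only inner gene with a summit within 1 kb. Its 2 upstream sites, both in the Blcap intron, lay 479 bp and 1329 bp from the start and 850 bp from each other. The nearer, at chromosome 2, 157559454 to 157559743, had a signal of 61.5, with 34.3 in replicate 1 and 24.7 in replicate 2. The farther, at 157558604 to 157558893, had 50.5, with 26.6 in replicate 1 and 20.3 in replicate 2. The median of the optimal list was 62.3, so both stood slightly below its middle, and both were in the conservative list. Within 50 bp of the summit a motif match was found at the farther site alone, with a score of 10.5 bits against a threshold of 10.4. The nearer site scored 9.53 bits, just under it. With a window of 25 bp, which has a lower threshold, all 3 sites of the pair had a match, the nearer site included. With the matrix learned from even-numbered autosomes the pair kept 1 match in place of 2. It was the match at the Blcap start, and neither site upstream of Nnat had a match.

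Peaks below the reproducibility thresholds were present at 3 of the 4 inner gene starts. The list from pooled reads, with 300000 entries, held a summit of any signal within 1 kb of the start in 62.0% of protein-coding genes. That share includes summits of strong peaks. The share of genes with a peak below the thresholds was not taken, so the count of 3 has no like share beside it. At Mcts2 it held a summit 51 bp upstream with a signal of 8.73 and rank 106614. Replicate 1 listed a summit 155 bp upstream with 7.28, and the only summit of replicate 2 within 1 kb was 989 bp upstream with 3.85. At Zrsr1 the pooled list held a summit 73 bp upstream with 8.10, and the replicates listed summits at 54 bp upstream (7.03) and 264 bp downstream (5.29). At Nnat it held, beside the optimal site, a summit 77 bp downstream with 7.79. At Nap1l5 no list held a summit within 1 kb, and the nearest of the pooled list was 3585 bp downstream with 11.7. At Mcts2 and Zrsr1 the replicates thus did not place the weak summit at the same position. At Nnat the weak summit lay 72 bp downstream in replicate 1 (6.14) and 296 bp downstream in replicate 2 (4.82).

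The 19 sites differed in number and strength between the pairs. The H13 and Mcts2 window, 79.2 kb long, held 8.84 sites per 100 kb and the Blcap and Nnat window 5.46. The Commd1 and Zrsr1 window held 4.75, and the Herc3 and Nap1l5 window, the longest at 128.9 kb, held 2.33. The whole genome held 2.08 per 100 kb of sequence. That value includes sequence far from genes, whereas the windows are drawn around genes, and the density around other genes was not taken. The median signal was 155.0 at H13 and Mcts2, 104.2 at Commd1 and Zrsr1, 61.5 at Blcap and Nnat and 30.7 at Herc3 and Nap1l5. The first and the last of these did not overlap in either replicate: every H13 site had a higher signal than every Herc3 site in both samples. These pairs were picked as the highest and lowest median, so the separation is partly set by that choice. How often other loci separate in this way was not counted.

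The window edges left out sites with a wide range of signals. The nearest sites beyond the 20 kb flanks were 33983 bp from the H13 pair (166.7), 33948 bp from the Blcap pair (383.8), 59244 bp from the Herc3 pair (162.0) and 25961 bp from the Commd1 pair (21.2). The outermost sites taken in lay 11859 bp, 437 bp, 1393 bp and 5125 bp from those pairs, with signals of 79.6, 251.2, 47.3 and 167.0.

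Within H13, downstream of Mcts2, 3 sites stood 1334 bp and 3526 bp from each other. Their signals were 76.6 at 5061 bp, 286.8 at 6395 bp and 334.4 at 9921 bp from the Mcts2 start. In replicate 1 they were 38.9, 145.9 and 186.1, and in replicate 2 they were 34.9, 140.9 and 151.9, the same order. The last of them lay 264 bp upstream of the start of Gm26841, a long non-coding RNA gene on the opposite strand. All 3 had a plus-strand motif, as did the site at the H13 start and the site 2313 bp downstream of it. That site, in intron 1, had a signal of 100.8, with 56.25 in replicate 1 and 40.96 in replicate 2. The only minus-strand motif of the window was at the outermost site, 11859 bp upstream of H13 (79.6). The site in intron 2, 8520 bp before Mcts2, had a signal of 155.0 and no motif match within 50 bp of the summit. With a window of 100 bp it had a match.

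In Commd1, 4 sites lay in the long intron 1 upstream of Zrsr1. Their signals were 128.8 at 14925 bp, 79.6 at 13827 bp, 36.7 at 6185 bp and 64.8 at 2322 bp from the Zrsr1 start. The site at 6185 bp was the only 1 of the 19 with a higher signal in replicate 2 (20.55) than in replicate 1 (14.5), a ratio of 0.704, below the 5th percentile of all sites. The strongest site of this pair was outside both genes, 5125 bp upstream of Commd1 and 3012 bp upstream of Cct4, a chaperonin subunit gene. It had a signal of 167.0, with 84.4 in replicate 1 and 82.1 in replicate 2.

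**Figure D3:**
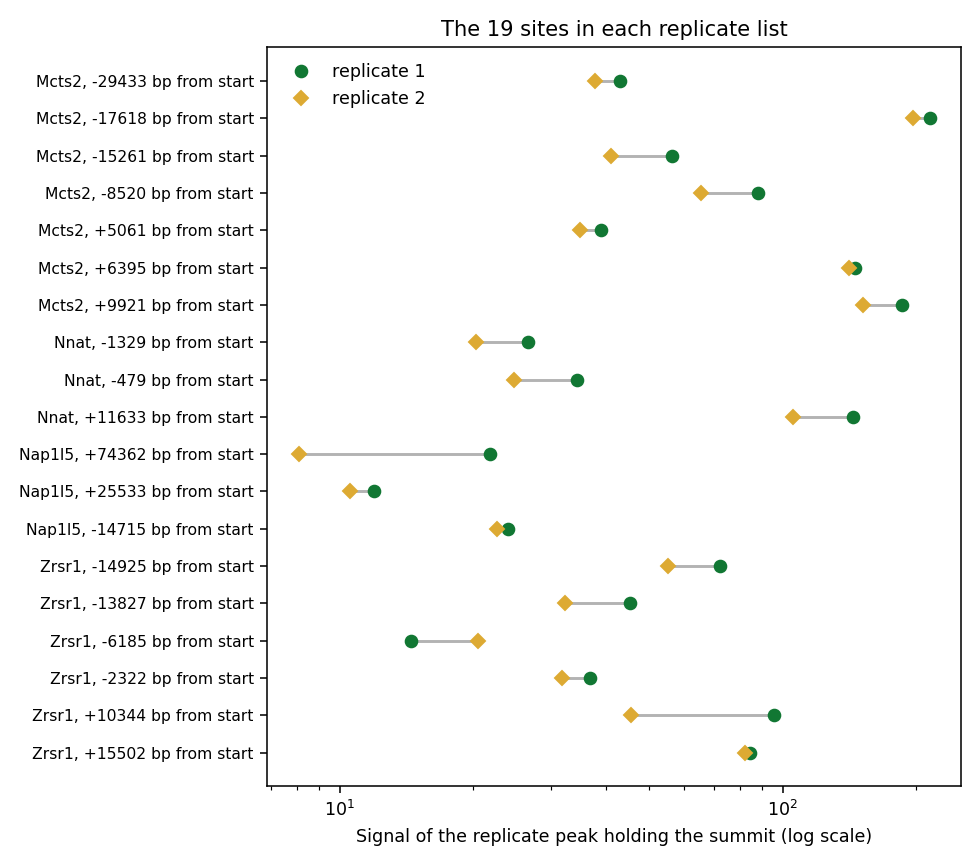
Signal of each of the 19 sites in replicate 1 (circles) and replicate 2 (diamonds) on a log axis, each site named by its inner gene and distance in bp from that start. At 18 sites the circle lies to the right, and the widest gap is at the site near the Herc3 start, 74362 bp from Nap1l5.

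Both replicates listed all 19 sites, as they did 53741 of all 54943 optimal sites, so this does not set the 19 apart. The percentile of a site within its replicate list, its rank counted from the weakest peak as a percent of that list, differed by a median of 0.610 points between the replicates and by 7.42 points at most, at the site near the Herc3 start. The median of this difference over all optimal sites was not taken. In all, 18 of the 19 were in the conservative list, against 87.5% of all optimal sites.

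A motif match was found at 12 of the 19 sites, or 6 of 7 at H13, 2 of 3 at Blcap, 1 of 3 at Herc3 and 3 of 6 at Commd1. The share of all optimal sites with a match was 60.5%, and the sites here were close to it. Of the 12 matches 8 were on the plus strand and 4 on the minus strand, where 49.8% of all matches were on the plus strand, and 4 pointed toward the inner gene start and 8 away from it. Among the 8 neighbouring pairs of motif-bearing sites, 6 were in tandem, 2 divergent and 0 convergent. Over the whole genome, of 15459 neighbouring motif-bearing sites up to 25 kb apart, 53.5% were in tandem, 27.2% divergent and 19.3% convergent, and 8 pairs are too few to set the members apart from these shares. The nearest motifs on either side of Mcts2, Nnat and Zrsr1 were in tandem, and Nap1l5 had a motif on 1 side only. At Mcts2 the motifs stayed in tandem under all 4 other motif settings tried, though not always at the same sites. At Nnat a motif on 1 or both sides was lost with 3 of those 4: a window of 100 bp, a threshold of 0.1% and the matrix from even-numbered autosomes. At Zrsr1 the motifs were lost with the 0.1% threshold and were divergent with a window of 25 bp. With that last window Nap1l5 had motifs on both sides, in tandem. A CpG, the dinucleotide whose methylation is known to affect CTCF, lay in 7 of the 12 matches, against 40.0% of all matches. The match at the H13 start had 3, and those at 6395 bp and 9921 bp from Mcts2 had 2 each.

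The inner gene starts were richer in CpG than most of the sites. The windows used for starts and sites differ in size. CpG content was not taken over all gene starts or all optimal sites, so no trait particular to these loci is shown. Within 500 bp of the start, the ratio of observed to expected CpG was 0.969 at Mcts2, 0.866 at Nnat, 0.714 at Nap1l5 and 0.661 at Zrsr1. Among the hosts it was 0.820 at H13, 0.737 at Herc3, 0.738 at Commd1 and 0.0697 at Blcap, where the gene start of the long transcript has 4 CpG. Within 250 bp of the summits it was 0.948 at the H13 start, 0.779 at the Commd1 start and 0.674 at the site 479 bp from Nnat. At the other sites it was 0.474 or lower. The summit fell in soft-masked sequence, which marks repeats, at 7 of the 19 sites, against 19.6% of all optimal sites. Of the 12 motif matches 5 lay mostly in such sequence, against 26.9% of all matches.

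**Figure D4:**
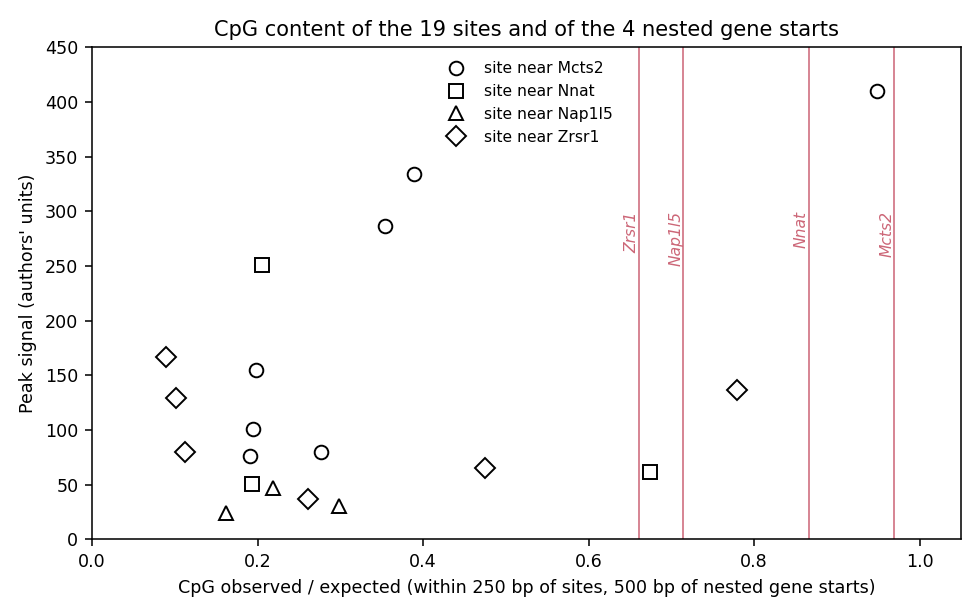
Peak signal of the 19 sites (y axis) against the ratio of observed to expected CpG around the summit (x axis), with vertical lines at the ratio of the 4 inner gene starts. The H13 start site stands alone at upper right, with 0.948 and 409.9, and the strongest site without a CpG-rich window, at 334.4, has 0.389.

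Among 10 other genes related to these pairs, a summit lay within 1 kb of the start in 2 of the 10, against the 26.6% of all protein-coding genes. The 10 were Mcts1 and Zrsr2, which gave rise to 2 of the retrogenes, Inpp5f, which holds an imprinted promoter in an intron, and 7 imprinted genes that are intronless, retroposed or derived from a retroelement (Peg10, Rtl1, Ndn, Magel2, Mkrn3, Peg12 and Klf14). Peg10, which is derived from a retrotransposon, had a summit 116 bp upstream with a signal of 156.2. Peg12, an intronless relative of the Wnt regulator Frat1, had a summit 159 bp upstream with 90.7. Magel2 just missed the window, at 1153 bp upstream. The X-linked source genes had none near: the closest summits were 34258 bp from Mcts1 and 45673 bp from Zrsr2. Both were farther than those of their retrogene copies, and 79.2% and 83% of protein-coding genes had a nearer site. From the closest annotated transcript start, the distances were 25033 bp for Mcts1 and 30488 bp for Zrsr2. The comparison of source genes and copies was chosen after the values were seen.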

How the data were processed

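The 5 narrowPeak lists were used as deposited. Per the deposited README, the replicate and pooled lists came from mm10 alignments and 1 further file shared by both samples. The optimal and conservative lists came from these 3 lists and another file, with a threshold on the irreproducible discovery rate, a measure of agreement between replicates. Aligner, caller and cutoff: not given in the sources used here. Peak signal is the authors' own value per peak, as deposited and not scaled between lists, so ranks were taken within a list. The deposited −log10 q values were not used. The replicate and pooled lists hold 300000 peaks each, the optimal list 54953 and the conservative list 53112.

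Summits were column 2 plus column 10. A replicate signal is that of the strongest replicate peak holding the optimal summit. Genes came from GENCODE M21 and sequence from GRCm38 patch 6, the chromosomes of mm10. The motif matrix, 20 bases wide, was grown from a 9-base seed in 15 rounds on the strongest 3000 sites of odd-numbered autosomes other than 11, dropping 30% each round, so no member locus trained it. A match passed a score that 1% of windows shifted by 1 kb pass. The scan was tested on simulated data. Members, lists and rules were chosen with earlier results of these data known. By the naming rule all 8 members were named. The strongest site of each pair and each site within 5 kb of a member start were given with both replicates. Of 10 related genes those with a site within 1 kb were named, as were other genes in a window with a site that near. Magel2, Cct4 and the distances of Mcts1 and Zrsr2 were chosen after their values were seen, as were the 25 kb limit for neighbouring motifs and the set of internal starts. Alternatives were other lists, each replicate left out, other flanks, windows, transcript starts and motif settings. No test was run, as there is 1 group. Python 3.11.15, numpy 2.4.6, pandas 2.3.3, pysam 0.24.0 and matplotlib 3.10.9 were used.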

Additional observations from a re-analysis of the deposited data

How the results depend on the processing

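Depth is unknown, so no statement here rests on read counts, and a missing peak is not proof of absent binding. Of 114 alternative values, 18 moved and 4 changed sign; the cause was not tested. The other 92 were counts within 1.5 times the reported count, distances within the shift of the summit between the replicates, or an unchanged median. With counts this small that margin lets through changes such as 6 to 9 sites at Commd1 with a flank of 50 kb, 3 to 2 sites at Herc3 in the conservative list or without replicate 1, 3 to 2 hosts among the strongest 10000 sites, and 6 to 4 motif sites at H13 with the 0.1% threshold. Among the strongest 10000 optimal sites, the pairs of H13, Blcap, Herc3 and Commd1 held 3, 1, 0 and 0 sites and 0 inner gene starts had one. With that list the nearest summit was 6395 bp from Mcts2, 11633 bp from Nnat (downstream), -60483 bp from Herc3, 136094 bp from Nap1l5, 364612 bp from Commd1 and -354235 bp from Zrsr1, negative being upstream. A promoter window of 5 kb gave 2 inner genes with a site. With all transcript starts, the nearest distance was 408 bp for Blcap and 853 bp for Herc3. The nearest summit to Herc3 was 50078 bp away in the conservative list. Leaving out 1 replicate meant taking the strongest 54953 peaks of the other. This gave 1246 bp for Herc3 without replicate 2 and 50099 bp without replicate 1. Blcap motif sites fell to 0 with a window of 100 bp, 0 with a threshold of 0.1% and 1 with the even-numbered matrix. They rose to 3 with a window of 25 bp. Herc3 motif sites were 2 with a window of 25 bp and 0 with the 0.1% threshold, which also left 0 at Commd1. Both matrices called 11 sites in common, all 11 on the same strand. No paired analysis was possible because there is 1 group.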

Other observations

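Of the 10 starts of non-coding host transcripts that lie over 1 kb from the gene start, 3 had a CTCF summit within 1 kb and 7 did not. The 3 were singled out after their values were seen. H13-205, a retained-intron transcript, starts 257 bp upstream of the summit at 5061 bp from Mcts2 (signal 76.6). Commd1-205, also a retained-intron transcript, starts 133 bp downstream of the summit at 14925 bp from Zrsr1, which has a signal of 128.8 and no motif match. Blcap-204, a processed transcript, starts 408 bp from the summit nearest to Nnat (61.5), on the opposite strand to Nnat, so that this summit lies inside Blcap-204 and upstream of Nnat. The other 7 starts lay 3176 bp (Commd1-206) to 20043 bp (Herc3-212) from the nearest summit, and 5 of them belong to Herc3.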
